A study of Arabidopsis thaliana with 8 samples.

Results

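Genes whose values went in opposite directions in Arabidopsis thaliana roots and shoots exposed to an airborne compound were collected by a rule. The rule used 8 RNA sequencing libraries. A gene was counted as opposite when both libraries exposed to 2,5-dimethylpyrazine lay above both water libraries in 1 organ and below both in the other. It also needed a mean of at least 1 in the root table and in the shoot table. Of 3691 listed genes, 3215 met that mean, and 374 of these (11.6%) were opposite. In 124 genes (3.86% of those tested) the compound went with higher values in root and lower values in shoot. In 250 genes (7.78%) it went with lower values in root and higher values in shoot. The same measured values chose these genes, so their levels and changes are given as a description and carry no test. That the pairs of an opposite gene do not overlap in either organ follows from the rule.

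All plants were wild type (WT) of ecotype Col-0, with no transgene or mutation named. The compound, 2,5-D for short, is a pyrazine volatile released by microbes. Plants shared an I-plate, which is divided, with a paper disc that carried 100 µM of it, or sterile water for the controls. The 4 groups were root water, root 2,5-D, shoot water and shoot 2,5-D, with 2 libraries each. The labels give an exposure of 24 hours and also 14 days of growth together in the plate, so the length of contact is not settled by them. Nothing says that paired libraries came from separately grown plants. P-values therefore measure the spread between libraries, which may be technical. Each library came from a whole organ, so fewer cells of a type and less RNA per cell cannot be told apart.

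The deposited values were a normalized abundance per gene, in a table for roots and another for shoots. Values of the listed genes summed to between 252869.9 and 343911.7 per library, and the sequencing depth is unknown. The tables were normalized separately, so a level in root and a level in shoot are set side by side below without a direct comparison. Each change is a difference of mean log2(value + 1) within a table. For genes with low values the added 1 makes changes look smaller. The tissue by treatment term is the root change minus the shoot change. A constant scale in either table cancels from it only approximately, because 1 is added to each value. Pairs of libraries were unequally tight, with 553 genes over 2-fold apart between the shoot water libraries. The other pairs had 32 such genes in root water, 2 in root 2,5-D and 14 in shoot 2,5-D. The 7 green-tissue markers found in the tables, such as the antenna protein genes CAB2 and CAB3, summed to 17767 to 18055 in shoot water, 10434 to 11432 in shoot 2,5-D and 242.5 to 336.5 in root. The 3 root markers found, CASP1, CASP2 and ESB1 of the Casparian strip, summed to 121 to 128 in root water, 57.8 to 72.9 in root 2,5-D and 1.87 to 3.95 in shoot. The organ labels thus matched their markers. The part of the lower marker sums under 2,5-D in the results below was not tested.

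Some background helps to read the genes. Small heat shock proteins bind unfolding proteins and keep them soluble, and the chaperone HSP101 pulls proteins back out of aggregates. Plants detect microbes with receptor-like kinases at the cell surface and with intracellular receptors of the nucleotide-binding, leucine-rich repeat class. Sucrose made in leaves is loaded into the phloem by proton-coupled carriers and unloaded in roots, so transport genes work in both organs under different demands.

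Roots and shoots moved in the same direction more often than in opposite ones. Both 2,5-D libraries were above both water libraries in root and in shoot for 1032 tested genes (32.1%), and below both in each organ for 548 (17%). The pairs separated in root alone for 738 genes (23%) and in shoot alone for 521 (16.2%). Only 2 listed genes separated in neither organ. No source used here gives the authors' rule for listing a gene, and the tables are treated as lists picked on these libraries. Across the 3215 tested genes the root and shoot changes correlated at a Pearson r of 0.44. The genes share their libraries and their normalization, so this r is a description and has no p. The median change was 0.23 in root and 0.37 in shoot, and the median term was -0.21.

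**Figure D1:**
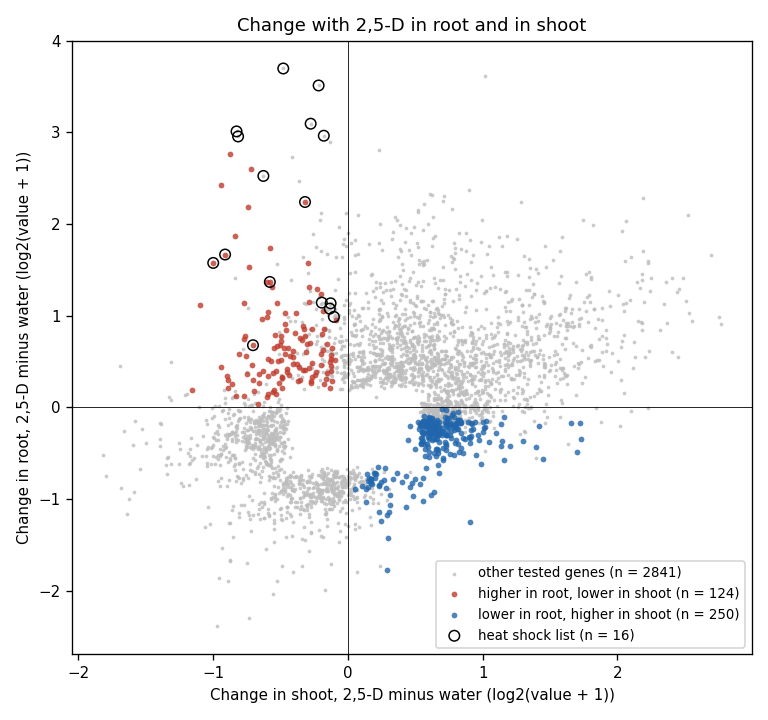
Change with 2,5-D in root (vertical axis) against change in shoot (horizontal axis), both as differences of mean log2(value + 1), for the 3215 tested genes. Red points are the 124 genes higher in root and lower in shoot, blue points the 250 genes lower in root and higher in shoot, and open circles the 16 tested members of the heat shock list. Circled points reach above 3 on the root axis while none lies to the right of 0 on the shoot axis.

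By limma, which fitted all 8 libraries together, 936 of 3215 genes passed an adjusted p of 0.05 for the tissue by treatment term (29.1%). The root change lay above the shoot change in 253 genes (7.87%) and below it in 683 (21.2%), and the smallest adjusted p was 0.0156. Every library of root or of shoot 2,5-D mattered to these counts. Without any 1 of the 4 root libraries limma called 0 genes, with 1010 to 1235 genes at an unadjusted p under 0.05. Without shoot 2,5-D library 1 it called 1 gene, and without library 2 it called 2. Without shoot water library 1 it called 1338, and without library 2 it called 1702. Rescaling each table to equal library medians turned the balance, with 310 calls above and 117 below in place of 253 and 683. The same rescaling moved the median term from -0.21 to 0.11, so a direction below is relative to that shift.

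Within single organs the picture was uneven. For root by itself, 1360 of 3487 genes passed limma's test as higher with 2,5-D (39%) and 783 as lower (22.5%). In shoot alone limma called 0 of 3376 genes (0%), with a smallest adjusted p of 0.0524 and 1664 genes (49.3%) at an unadjusted p under 0.05. No shoot change named below passed the test by itself. Since the tables appear picked on these libraries, the outcome of the tests is partly fixed, and the p-values and shares hold for the listed genes alone. Of the opposite genes, 76 of the 124 root-high genes and 78 of the 250 root-low genes also passed in root alone. The term passed in 86 of the 124 and in 246 of the 250, beside 29.1% of all tested genes. As the rule and the term use the same values, nothing is read from those shares.

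Most opposite genes moved little in at least 1 organ. In the root-high set the median change was 0.56 in root and -0.47 in shoot. In the root-low set it was -0.29 in root and 0.65 in shoot. Both changes reached 0.5 in size in 30 genes of the first set and 22 of the second. A single gene, AT3G19615, reached a size of 1 in both organs. The threshold on the mean left out 42 further genes with the opposite pattern, 21 in each direction. Just inside it stood CAT6 (AT5G04770), an amino acid transporter, at 1.41 and 1.12 in shoot water and 1 and 0.83 in shoot 2,5-D. RLP46 (AT4G04220), a receptor-like protein, was just inside as well, at 1.23 and 1.53 in root water and 0.83 and 0.94 in root 2,5-D. Just outside stood AT4G29920, a protein with Clp-N motifs, at 1.02 and 0.8 in shoot water and 1.11 and 1.03 in shoot 2,5-D. FRO8 (AT5G50160), annotated as a ferric reductase, was outside at 1.03 and 1.31 in root water and 0.71 and 0.77 in root 2,5-D.

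Transcript length went with the direction. The median exonic length was 1152.5 bases in the root-high set, 3343 bases in the root-low set and 1701 bases in all tested genes. Over 5 equal groups of the tested genes, from the shortest to the longest transcripts, the median shoot change went from -0.43 through 0.10, 0.32 and 0.52 to 0.66. The median root change over the same groups was 0.31, 0.44, 0.41, 0.24 and -0.07. Root-high opposite genes numbered 52, 40, 18, 12 and 2 in these groups, and root-low ones 2, 10, 23, 56 and 159. Between libraries of 1 group the medians of the same length groups differed by between -0.16 and 0.12. With a smooth trend of each organ's change on length removed, limma called 135 genes (88 above and 47 below), and 128 of these were among the 936. The same correction gave 232 root-high and 115 root-low opposite genes, of which 70 and 80 were in the sets described here. In the shortest group 15.4% of genes passed the term above and 8.09% were root-high opposite genes. In the longest group 59.1% passed below and 24.7% were root-low opposite genes. For most gene lists below the count after the correction is given as well. It is not given for the salicylate, abscisic acid, touch, ribosomal protein, UDP-glycosyltransferase and peroxidase lists.

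**Figure D2:**
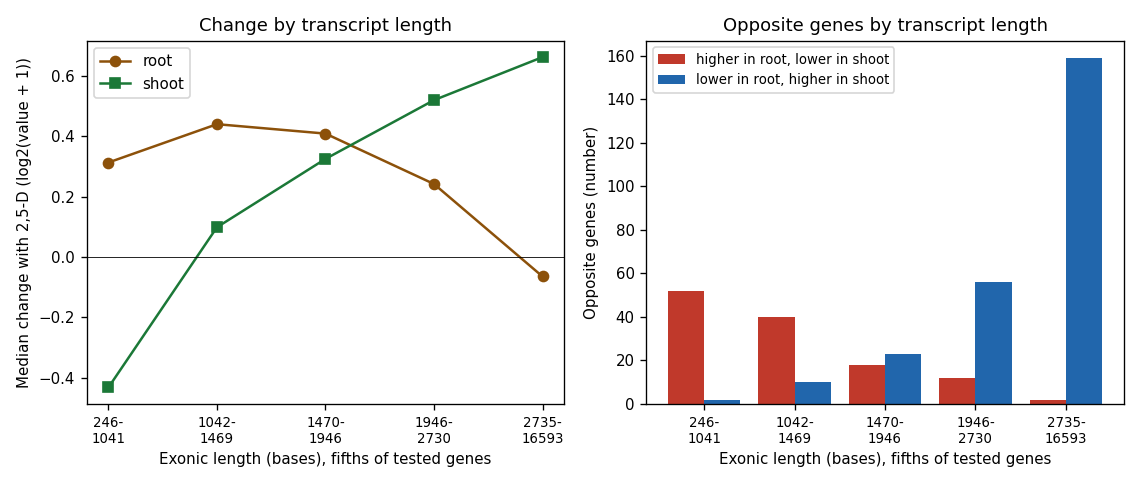
The left panel shows the median change with 2,5-D, on the log2(value + 1) scale, in root (brown circles) and shoot (green squares) for 5 equal groups of the 3215 tested genes by exonic length in bases. The right panel shows how many opposite genes fell in each group, with red bars for root-high and blue bars for root-low genes. The shoot median climbs from -0.43 to 0.66 with length, and 159 of the 250 root-low genes are in the longest group.

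Of the gene lists examined, heat shock genes had the largest median term. Like the other lists, this list was chosen with earlier results of these data known, so its counts are a description. All 17 genes of the list rose in root by limma, beside 39% of all genes tested in root. Of the 16 that met the mean in both tables, 13 passed the tissue by treatment term with the root change above the shoot change, and 0 passed below it. The background for that direction was 7.87% of tested genes. The list's median change was 1.95 in root and -0.40 in shoot, and its median term was 2.58 beside -0.21 for all tested genes. In shoot, 0 of the 16 had both 2,5-D libraries above both water libraries and 5 had both below. Those 5 were AT1G07400, AT2G29500, HSP18.2, HSP101 and HSA32, and all 5 were opposite genes. Over all tested genes 32.1% separated upward in both organs and 17% downward, 11.6% were opposite, and 16.2% separated in shoot alone. Called members numbered 13 with equal medians and 7 with the length trend removed. A mean of at least 5 in each table left 6. They numbered 0 without any 1 root library or any 1 shoot 2,5-D library, 13 without shoot water library 1 and 16 without library 2. Small heat shock genes are close paralogs, and how the authors assigned shared reads is not given, so single members carry that uncertainty.

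AT1G07400, an HSP20-like chaperone of the small heat shock class, was at 17.97 and 11.87 in root water and 53.15 and 39.05 in root 2,5-D. In shoot it was at 22.87 and 9.32 in water and 8.46 and 5.52 under 2,5-D. Root libraries of the groups were far apart, whereas the lower shoot water library was close to the higher 2,5-D library. Its log2 change in root was 1.58 and its term was 2.57. AT2G29500, also HSP20-like, was at 21 and 19.13 in root water, 76.63 and 56.53 in root 2,5-D, 13.29 and 4.83 in shoot water, and 3.81 and 3.9 in shoot 2,5-D. Here too the shoot groups were separated by a narrow gap, and the first shoot water library stood high. Its changes were 1.67 in root and -0.91 in shoot.

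HSP101 (AT1G74310), the disaggregating chaperone, went from 6.59 and 4.75 in root water to 31.11 and 29.34 in root 2,5-D. Its shoot values were 7.3 and 5.06 in water and 4.93 and 4.46 under 2,5-D, which is barely separated. The changes were 2.24 in root and -0.32 in shoot. HSP18.2 (AT5G59720) was at 6.24 and 6.82 in root water and 20.24 and 16.75 in root 2,5-D, and at 23.38 and 17.68 in shoot water and 13.92 and 12.68 in shoot 2,5-D. Its changes were 1.37 in root and -0.58 in shoot. HSA32 (AT4G21320), needed for long-term acquired heat tolerance, was at 5.28 and 6.25 in root water, 11.54 and 8.29 in root 2,5-D, 4.83 and 3.9 in shoot water, and 2.65 and 1.95 in shoot 2,5-D. Its changes of 0.68 in root and -0.70 in shoot were nearly equal in size.

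Other small heat shock genes moved strongly in root and overlapped in shoot. HSP21 (AT4G27670), the plastid member, was at 0 and 0.26 in root water and 17.3 and 10.58 in root 2,5-D, while shoot values were 3.53 and 1.01 in water and 1.84 and 0.65 under 2,5-D. Its term of 4.18 (SE 0.65, adjusted p = 0.0196) was the largest of the list, and its shoot groups overlapped. AT1G53540 had a term of 3.84 (SE 0.68, adjusted p = 0.0212), with a root change of 3.01 and a shoot change of -0.83. AT5G12020, a class II small heat shock protein, had a term of 3.77 (SE 0.62, adjusted p = 0.0206). ATHSP22.0 (AT4G10250), of the endomembrane system, was at 0.54 and 0.49 in root water and 17.98 and 14.73 in root 2,5-D, and at 5.02 and 0.95 in shoot water against 3.26 and 1.04 with 2,5-D. The term was 3.73 (SE 0.79, adjusted p = 0.0253), and its shoot change of -0.22 lay within overlapping libraries. HSP17.4 (AT3G46230) and HSP23.6-MITO (AT4G25200), a mitochondrial member, had terms of 3.37 (SE 0.66, adjusted p = 0.0226) and 3.14 (SE 0.56, adjusted p = 0.0212). Shoot changes of this pair were -0.28 and -0.18.

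**Figure D3:**
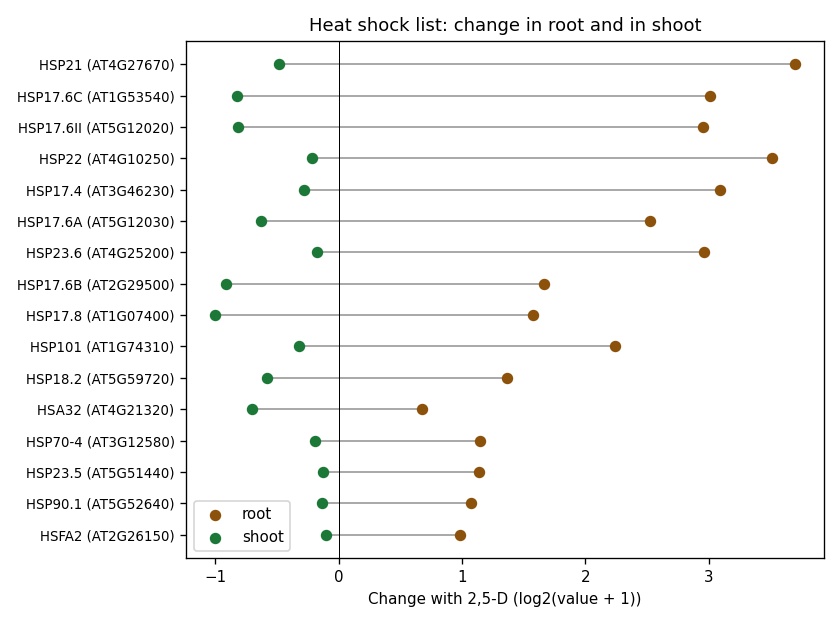
Change with 2,5-D on the log2(value + 1) scale in root (brown) and shoot (green) for the 16 tested genes of the heat shock list, ordered by the tissue by treatment term, with a line joining the 2 organs of each gene. All root points lie to the right of 0 and all shoot points to the left, from 3.70 and -0.48 for HSP21 at the top to HSFA2 at the bottom.

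Other opposite genes carried an HSP20-like annotation and were root-high. The family was counted after the values were seen. AT5G37670 was at 0.83 and 0.66 in root water and 7.78 and 9.01 in root 2,5-D. Its shoot values were 9.28 and 3.23 in water and 2.54 and 2.34 under 2,5-D. The organs' changes were 2.43 and -0.94. AT1G54050 was at 7.13 and 5.24 in root water, 33.22 and 29.62 in root 2,5-D, 17.77 and 11.25 in shoot water, and 8.95 and 7.27 in shoot 2,5-D. AT1G59860 was at 6.91 and 4.61, then 46.76 and 33.3, in root, and at 10.21 and 7.39, then 5.76 and 4.16, in shoot. Both genes were free of overlap, as the rule requires. Of all 16 listed genes with an HSP20-like or small heat shock annotation, 14 were tested, 12 passed with root above shoot, and 6 were opposite. With the length trend removed 7 passed and 6 were opposite. AT1G07400, AT2G29500, HSP17.4 and ATHSP22.0 were among those that no longer passed, with adjusted p of 0.0881, 0.0707, 0.0603 and 0.0625. An exception in direction was AT5G02480, which fell in root from 70.97 and 66.33 to 26.87 and 35.96.

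Further root-high genes came from unrelated functions. The uncharacterized gene AT4G28290 had the largest root change of the set. It was at 20.9 and 24.68 in root water, 169.05 and 150.67 in root 2,5-D, 13.66 and 12.07 in shoot water, and 4.82 and 8.76 in shoot 2,5-D. The changes were 2.76 in root and -0.88 in shoot. AT3G19615, annotated as a beta-1,4-xylosidase, was at 17.46 and 13.09 in root water, 33.89 and 34.2 in root 2,5-D, 37.06 and 16.9 in shoot water, and 8.75 and 14.21 in shoot 2,5-D. The shoot water libraries were over 2-fold apart here, so the shoot change of -1.10 rests on an unequal pair. Its root change was 1.12.

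CA1 (AT3G01500), the main chloroplast carbonic anhydrase, was at 2.98 and 1.32 in root water and 10.46 and 9.71 in root 2,5-D. Shoot values were 1202 and 706.5 in water and 415.2 and 638.6 under 2,5-D. Root levels were low in all libraries, and the shoot groups were close at their edges (changes of 1.87 and -0.84). SWEET2 (AT3G14770), a sugar carrier of the vacuole membrane, was at 5.99 and 6.75 in root water and 20.7 and 19.8 in root 2,5-D. In shoot it was at 8.76 and 5.81 in water and 3.96 and 3.85 under 2,5-D. The changes were 1.53 and -0.73. MPL1 (AT5G14180), a lipase linked to aphid resistance, was at 4.89 and 4.02 in root water, 10.27 and 11.72 in root 2,5-D, 2.37 and 1.55 in shoot water, and 0.69 and 0.74 in shoot 2,5-D. Its changes were 1.14 and -0.77.

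TEM1 (AT1G25560), a repressor of flowering, was at 100.81 and 74.25 in root water and 151.2 and 146.61 in root 2,5-D, and at 146.33 and 68.17 in shoot water and 52.84 and 64.68 in shoot 2,5-D. Its shoot pairs missed overlapping by a small margin, and it was among the 42 opposite genes whose term did not pass (0.78 in root and -0.76 in shoot). RMA1 (AT4G03510), a ubiquitin ligase of the endoplasmic reticulum, was at 26.3 and 16.76 in root water, 34.66 and 37.42 in root 2,5-D, 14.97 and 7.91 in shoot water, and 5.43 and 6.57 in shoot 2,5-D. The changes were 0.75 and -0.77. AT5G49690, a UDP-glycosyltransferase, was at 1.41 and 1.22 in root water, 4.34 and 5.68 in root 2,5-D, 2.9 and 1.88 in shoot water, and 1.23 and 1.2 in shoot 2,5-D. The next locus number, AT5G49700, annotated as an AT-hook protein and named after its values were seen, was also root-high, with changes of 1.74 and -0.58. Such neighbours by locus number were 7 pairs among the opposite genes, and in 6 of them both members moved in the same direction. Neighbouring pairs among all tested genes are not counted here, so nothing is read from those 6.

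Histone genes made up a second root-high group by the rule, with much smaller root changes. Of 18 tested histone genes, 7 were opposite (38.9%), all root-high, and 6 passed the term with root above shoot (33.3%). Those shares were 3.86% and 7.87% in all tested genes, and 8.09% and 15.4% in the shortest length group. The median change was 0.07 in root and -0.59 in shoot, so the difference lay mainly in shoot. There 15 of 18 had both 2,5-D libraries below both water libraries. Downward separation in shoot was shared with root in 17% of all tested genes and root-high in 3.86%. A further 16.2% separated in shoot alone, in either direction. The shortest length group had a median shoot change of -0.43. AT3G46320, which encodes histone H4, was at 89.8 and 81.22 in root water, 101.63 and 102.94 in root 2,5-D, 87.31 and 89.45 in shoot water, and 44.58 and 52.49 in shoot 2,5-D. Its changes were 0.26 in root and -0.86 in shoot. HTA13 (AT3G20670), a histone H2A, was at 102.4 and 77.86 in root water, 121.17 and 135.29 in root 2,5-D, 78.27 and 63.8 in shoot water, and 52.34 and 47.6 in shoot 2,5-D (changes of 0.52 and -0.49). In the other 5 opposite histone genes the change was 0.12 to 0.40 in root and -0.89 to -0.53 in shoot. Histone transcripts are short, at 644 to 1002 bases in these 7. With the length trend removed none of the 7 was opposite, and their root changes ran from -0.21 (HIS4) to 0.17 (HTA13). Under that correction 0 of the 18 passed. Weights per group left 2, as did the replicate block, and 0 passed without any 1 root or shoot 2,5-D library. Several histone genes encode identical proteins from near-identical transcripts, so single copies are uncertain.

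**Figure D4:**
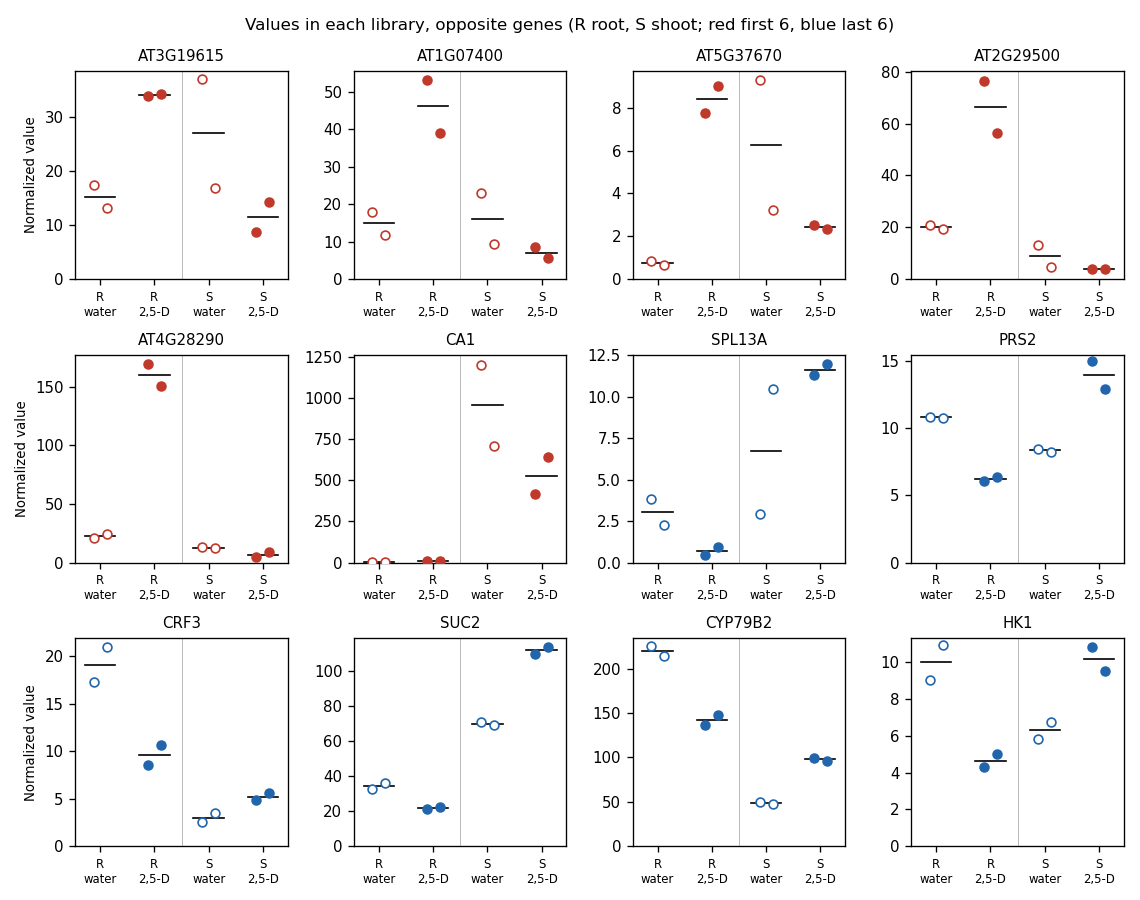
Normalized values in every library for 12 opposite genes, the first 6 (red) root-high and the last 6 (blue) root-low. R stands for root and S for shoot, open points are water libraries, filled points 2,5-D libraries, and each line is the mean of 2 libraries. Each panel has its own axis from 0. As the rule requires, the filled and open points of an organ are separated in all panels. Gaps are narrow in the shoots of AT1G07400, AT2G29500, CA1 and SPL13A.

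Intracellular immune receptors have long transcripts, with a median of 4116 bases over the 41 tested. Of these 41 tested genes with this annotation, 24 passed the term with the root change below the shoot change and 0 above it, beside 21.2% and 7.87% of all tested genes. That is 58.5% passing below, against 59.1% in the longest length group, and 22% were root-low opposite genes, against 24.7%. The receptors' counts were thus near those of long genes in general. Their median change was 0.01 in root and 0.79 in shoot. Both shoot 2,5-D libraries were above both water libraries in 42 of the 43 genes tested in shoot. Among all tested genes 32.1% separated upward in both organs and 7.78% were root-low. A further 16.2% separated in shoot alone, in either direction. The longest length group had a median shoot change of 0.66. In root limma called 9 higher and 2 lower of the 41 receptors, beside 39% and 22.5% of all genes tested there. The 9 opposite receptors had changes of -0.79 to -0.22 in root and 0.27 to 1.13 in shoot. After removal of the length trend 0 passed below and 1 above, and with equal medians 6 passed below and 1 above. Leaving out any 1 root or shoot 2,5-D library left 0. Transcripts of the 9 ran from 3500 to 5674 bases.

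Among them AT5G40910, of the TIR class, was at 16.94 and 16.37 in root water, 12.28 and 12.15 in root 2,5-D, 17.16 and 23.3 in shoot water, and 49.74 and 40.89 in shoot 2,5-D. The pairs were well separated in both organs, and the changes were -0.42 and 1.13. RRS1 (AT5G45260), which carries a WRKY domain and senses bacterial effectors together with RPS4, was at 6.1 and 6.08 in root water and 4.29 and 4.61 in root 2,5-D. Its shoot values were 4.4 and 4.02 in water and 8.43 and 6.79 under 2,5-D. The changes were -0.38 in root and 0.72 in shoot. AT3G44670 went from 13.98 and 12.13 to 10.16 and 11.94 in root, where the groups almost touched, and from 14.4 and 17.33 to 36.4 and 29.77 in shoot. AT5G35450, of the CC class, showed the reverse balance, with a root change of -0.79 and a shoot change of 0.27. RPS6 (AT5G46470), which recognizes a bacterial effector, was not opposite. It had the largest term of the list at -1.67 (SE 0.39, adjusted p = 0.0295), with 11.29 and 6.2 in root water, 7.23 and 8.34 in root 2,5-D, 10.71 and 13.91 in shoot water, and 43.1 and 34.04 in shoot 2,5-D.

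Receptor-like kinases, matched by product name, had a median of 2954.5 bases. Of 82 tested, 38 passed with the root change below the shoot change (46.3%), 2 passed above it and 42 did not pass. The share passing below was 21.2% in all tested genes and 59.1% in the longest length group. Their median change was -0.05 in root and 0.70 in shoot. In root 37 of 90 fell and 21 rose by limma, beside 22.5% and 39% of all genes tested there. In shoot 68 of 97 had both 2,5-D libraries above both water libraries and 12 had both below. Over all tested genes 32.1% separated upward in both organs, 17% downward in both and 16.2% in shoot alone. Opposite kinases numbered 9 (11%), all root-low, beside 7.78% of all tested genes and 24.7% of the longest group. Product names worded differently, such as that of XIP1 below, fall outside this count. After the length trend was removed 0 passed below and 2 above, and with equal medians 11 passed below and 2 above. Leaving out any 1 root or shoot 2,5-D library left 0.

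CLV1 (AT1G75820), the receptor that limits the shoot stem cell pool, was at 17.36 and 19.62 in root water and 7.59 and 9.02 in root 2,5-D. In shoot it was at 11.22 and 11.95 in water and 16.24 and 13.2 under 2,5-D. Its root groups were widely apart and its shoot groups narrowly apart, with changes of -1.07 and 0.31. The shoot change turned to -0.33 with the length trend removed and to -0.06 with equal medians, so CLV1 was opposite under neither. LRR XI-23 (AT1G09970) was the most abundant of the 9, at 182.6 and 161 in root water, 130.1 and 144 in root 2,5-D, 124.1 and 126.1 in shoot water, and 232.4 and 234.9 in shoot 2,5-D. The shoot pairs were tight, and the changes were -0.32 and 0.90. AT1G51890 was at 7.3 and 7.85 in root water, 7.06 and 6.17 in root 2,5-D, 4.74 and 4.09 in shoot water, and 21.1 and 13.47 in shoot 2,5-D. The root change was -0.17 and the shoot change 1.73. XIP1 (AT5G49660), also called CEPR1, is a receptor of CEP peptides, which report nitrogen shortage from root to shoot. It was at 14.9 and 18.31 in root water, 7 and 8.34 in root 2,5-D, 7.43 and 6.03 in shoot water, and 10.59 and 10.08 in shoot 2,5-D. Its changes were -1.02 in root and 0.56 in shoot. With the length trend removed its shoot change was -0.07 and it was not opposite. The same correction took the shoot change of RRS1 (AT5G45260) to -0.02 and that of AT5G35450 to -0.42.

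The root-low genes included carriers of sugars or protons, of which 3 are described here. SUC2 (AT1G22710), the sucrose-proton carrier that loads the phloem, was at 32.74 and 35.92 in root water and 21.41 and 22.21 in root 2,5-D. Its shoot values were 70.57 and 69.08 in water and 109.57 and 113.91 under 2,5-D. Every pair was tight, and the changes were -0.63 in root and 0.67 in shoot. HA3 (AT5G57350), a proton pump of the plasma membrane, was at 28.4 and 29.67 in root water, 16.6 and 19.56 in root 2,5-D, 38.74 and 32.24 in shoot water, and 53.68 and 53.03 in shoot 2,5-D. Its changes were -0.66 and 0.58. With the length trend removed the shoot change of HA3 was -0.04 and it was not opposite, whereas SUC2 stayed opposite at -0.74 and 0.24. SWEET11 (AT3G48740), which exports sucrose from leaf phloem cells, was at 5.46 and 6.13 in root water and 1.32 and 1.76 in root 2,5-D, and at 147.6 and 123.6 in shoot water and 161.7 and 170.9 in shoot 2,5-D. For this gene the change was mostly in root (-1.42 against 0.30), and with equal medians its shoot change was -0.11.

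Root-low genes also covered the aldoxime route and hormone signalling. CYP79B2 (AT4G39950) and CYP79B3 (AT2G22330) turn tryptophan into indole-3-acetaldoxime, the precursor of indole glucosinolates and camalexin. CYP79B2 was at 225.3 and 213.9 in root water, 136.9 and 147.8 in root 2,5-D, 49.87 and 48.09 in shoot water, and 99.95 and 96.16 in shoot 2,5-D. Its pairs were tight in all groups, with changes of -0.62 and 0.99. CYP79B3 was at 117.9 and 168.2 in root water, 81.65 and 77.69 in root 2,5-D, 48.09 and 39.58 in shoot water, and 59.55 and 56.4 in shoot 2,5-D (-0.81 and 0.40). These were the only opposite genes among 26 tested cytochromes P450 (7.69%, beside 7.78% of all tested genes that were root-low). Of the 26, 3 passed the term above and 3 below (11.5% each), beside 7.87% and 21.2% of all tested genes. With the length trend removed 2 passed above and 1 below. That correction left CYP79B2 opposite and took the shoot change of CYP79B3 to -0.07. CRF3 (AT5G53290), a cytokinin response factor, was at 17.25 and 20.93 in root water, 8.53 and 10.64 in root 2,5-D, 2.5 and 3.51 in shoot water, and 4.83 and 5.59 in shoot 2,5-D. The changes were -0.93 and 0.64. HK1 (AT2G17820), a histidine kinase linked to osmosensing, was at 9.02 and 10.97 in root water and 4.29 and 5 in root 2,5-D, and at 5.85 and 6.78 in shoot water and 10.86 and 9.55 in shoot 2,5-D (-0.96 and 0.62). With the length trend removed its shoot change was -0.07.

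The remaining root-low genes with the largest smaller change were of mixed function. PRS2 (AT1G32380) makes phosphoribosyl pyrophosphate for nucleotide synthesis, and was at 10.86 and 10.77 in root water, 6.07 and 6.35 in root 2,5-D, 8.44 and 8.24 in shoot water, and 15.01 and 12.95 in shoot 2,5-D. With near-identical water libraries in both organs it was among the cleanest cases (-0.71 and 0.68). IRX3 (AT5G17420), the cellulose synthase CESA7 of secondary walls, was at 8.61 and 8.98, then 4.61 and 4.85, in root, and at 3.19 and 1.85, then 4.24 and 3.93, in shoot. Root pairs were tight and the shoot change was small in level (-0.77 and 0.56). It became -0.07 with the length trend removed. SPL13A (AT5G50570), a squamosa promoter-binding factor, was at 3.83 and 2.29 in root water, 0.43 and 0.95 in root 2,5-D, 2.95 and 10.46 in shoot water, and 11.28 and 11.94 in shoot 2,5-D. Its shoot water libraries lay far apart, and its term did not pass. AT1G26420, a berberine bridge enzyme-like oxidase, went from 4.02 and 3.71 to 2.3 and 2.3 in root and from 3.79 and 4.37 to 14.53 and 11.39 in shoot. The set of 12 was completed by AT4G00700, of the C2 calcium and lipid-binding family, at -0.58 and 1.16, and AT5G22860, a serine carboxypeptidase, at -0.57 and 0.70.

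The study's title names nitrate and ammonium transport, so nitrogen genes were read for a difference between organs. Of 5 tested nitrate transport genes, 2 tested ammonium transporters and 5 tested nitrogen assimilation genes, 0 passed the term by limma, with 4, 0 and 1 at an unadjusted p under 0.05. SLAH3 (AT5G24030), a nitrate-permeable anion channel, had the largest term at -2.22 (SE 0.71, adjusted p = 0.0585). The xylem nitrate retriever NRT1.8 (AT4G21680) had -1.95 (SE 0.72, adjusted p = 0.0850) and the xylem loader NRT1.5 (AT1G32450) -1.09 (SE 0.43, adjusted p = 0.103). In root water the SLAH3 pair stood at 61.79 and 22.81 and the NRT1.8 pair at 102.3 and 34.62, so each was over 2-fold apart. Nitrate transport genes passing below numbered 2 with a pseudocount of 5 or with no filter, and 3 with a replicate block whose shoot water numbers were crossed. In either direction those settings called 34.2%, 34% and 30.4% of all genes they tested, beside 29.1% as reported. In the 3 lists 0 passed with the length trend removed. NIR1 (AT2G15620), nitrite reductase, was the single opposite gene of the 3 lists. It was at 74.94 and 111.94 in root water, 66.24 and 74.72 in root 2,5-D, 164.4 and 137.9 in shoot water, and 249.2 and 232.8 in shoot 2,5-D. Its root groups nearly touched, and its term of -1.05 did not pass (adjusted p = 0.0515). AMT1;1 (AT4G13510) and AMT2 (AT2G38290), both ammonium transporters, had terms of 0.41 (SE 0.28) and -0.46 (SE 0.25).

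Some genes passed the term by moving in 1 organ while the other stayed within 0.3 of no change. Among the 936 called of 3215 tested genes, 69 had a change of at least 1 upward in root and 55 downward in root. In shoot 83 had such a change upward and 8 downward. Besides heat shock genes, the root-up kind was led by AT3G47380, a pectin methylesterase inhibitor family member, at 6.41 and 7.01 in root water and 52.09 and 60.93 in root 2,5-D, against 1.92 and 1.94, then 2 and 1.39, in shoot (term 3.03, SE 0.21, adjusted p = 0.0156). AT5G54165, annotated as rapidly elicited by a fungal effector, had a term of 2.57 (SE 0.61, adjusted p = 0.0301). GSTU3 (AT2G29470), a tau-class glutathione transferase, had 2.32 (SE 0.54, adjusted p = 0.0284). Of 21 tested glutathione transferases 6 passed above (28.6%, beside 7.87% of all tested genes) and 0 below. With the length trend removed 3 passed above. GSTU5 (AT2G29450), which lies in a cluster of close paralogs, was at 101.5 and 75.26 in root water, 498.4 and 479.7 in root 2,5-D, 132.4 and 94.9 in shoot water, and 75.82 and 99.3 in shoot 2,5-D. That is the largest term of the family at 2.84 (SE 0.35, adjusted p = 0.0169), and its shoot groups overlapped.

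Of the root-down kind, EXPA14 (AT5G56320), an expansin that loosens walls, was at 48.87 and 56.24 in root water and 12.63 and 16.79 in root 2,5-D, with shoot values of 1.11 and 1.01, then 1.13 and 1.98. It met the opposite rule on a narrow shoot gap, and its term was -2.07. BAM3 (AT4G20270), a CLE peptide receptor of the root phloem, was at 16.44 and 19.97 in root water and 4.07 and 5 in root 2,5-D, and at 5.05 and 3.59, then 4.62 and 4.41, in shoot. The term was -1.86 (SE 0.25, adjusted p = 0.0169), with overlapping shoot libraries. BXL2 (AT1G02640), a beta-xylosidase, had a term of -1.83 (SE 0.23, adjusted p = 0.0169), TPPH (AT4G39770), a trehalose phosphate phosphatase, -1.97 (SE 0.54, adjusted p = 0.0402) and the aspartyl protease AT3G20015 -1.58 (SE 0.22, adjusted p = 0.0169). For expansins and xyloglucan enzymes together, 3 of 10 tested passed below (30%) and 1 above (10%), beside 21.2% and 7.87% of all tested genes. With the length trend removed 1 passed below and 0 above.

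Shoot-up genes with a flat root were more numerous than shoot-down ones. The median shoot change of all tested genes was 0.37 as reported and -0.01 with equal medians, so that balance is relative to this shift. From the shortest to the longest length group the median shoot change went from -0.43 to 0.66. ABCC11 (AT1G30420), an ABC transporter of the multidrug resistance class, was at 2.06 and 1.87 in shoot water and 12.28 and 10.27 in shoot 2,5-D, and at 8.15 and 7.05, then 7.99 and 9.15, in root. Its term was -1.89 (SE 0.20, adjusted p = 0.0169). CKX5 (AT1G75450), which degrades cytokinin, was at 2.76 and 3.64 in shoot water and 15.02 and 9.8 in shoot 2,5-D, and also met the opposite rule with root at 2.53 and 2.84, then 2.24 and 2.3. AT1G51270, a vesicle-associated protein, stood at 6.1 and 6.48 in shoot water and 24.9 and 25.4 in shoot 2,5-D. Its root libraries overlapped (term -1.85, SE 0.16, adjusted p = 0.0169). AT3G03030, an F-box protein, and AT3G56790 had terms of -2.14 (SE 0.58, adjusted p = 0.0388) and -2.03 (SE 0.52, adjusted p = 0.0332).

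Downward in shoot alone, NAC6 (AT5G39610), a senescence regulator also known as ORE1, was at 22.38 and 21.86 in water and 8.96 and 7.52 under 2,5-D, while root libraries overlapped at 7.15 and 11.07, then 9.69 and 9.69. Its term was 1.44 (SE 0.28, adjusted p = 0.0225). GSTU20 (AT1G78370) was at 610.1 and 511.3 in shoot water and 187.8 and 240.9 in shoot 2,5-D (term 1.21, SE 0.27, adjusted p = 0.0276). LSU3 (AT3G49570), of a family induced by low sulfur, had a term of 1.39 (SE 0.36, adjusted p = 0.0343). The others with a root change of less than 0.3 in size were AT2G43550 at 1.40 (SE 0.25), AT1G52245 at 1.34 (SE 0.32) and AT5G53820 at 1.34 (SE 0.27). AT2G43550 also separated downward in root, at 61.19 and 62.31 in water and 46.4 and 57.32 under 2,5-D.

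Called genes that moved in the same direction in both organs by unequal amounts numbered 135, 53 with the root change above and 82 with it below. Some, such as BXL2, also belong to the kinds above that moved mainly in 1 organ. AT2G38240, an oxygenase on the jasmonate list, was at 12.89 and 7.95 in root water and 121.5 and 151.5 in root 2,5-D. Shoot values averaged 6.62 ± 3.88 in water and 13.9 ± 5.28 under 2,5-D (SD, n = 2), so the organs shared a direction with root well ahead (changes of 3.62 and 1.02, term SE 0.61, adjusted p = 0.0295). BAG6 (AT2G46240), a co-chaperone, had a term of 1.76 (SE 0.23) and DREB2C (AT2G40340), a transcription factor of the heat response, 1.73 (SE 0.22), each with an adjusted p of 0.0169. SERK4 (AT2G13790), a co-receptor of immune receptor kinases, was at 31.89 and 21.88 in root water, 32.3 and 34.57 in root 2,5-D, 27.83 and 37.91 in shoot water, and 124 and 102.4 in shoot 2,5-D (term -1.44, SE 0.34, adjusted p = 0.0295). AT3G10190, a calcium-binding protein, and UMAMIT20 (AT4G08290), an amino acid transporter family member, were lower in both organs and more so in root, with terms of -1.57 (SE 0.35) and -1.39 (SE 0.28).

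Several lists had few or no members past the term, which 7.87% of all tested genes passed above and 21.2% below. Of 18 tested jasmonate genes 15 rose in root, beside 39% of all genes tested there. In shoot 15 had both 2,5-D libraries above both water libraries. Upward separation in both organs was found in 32.1% of all tested genes, the root-low pattern in 7.78%, and separation in shoot alone in 16.2%. Among the jasmonate genes the term passed in 2, both above (11.1%), and in 0 with the length trend removed. Salicylate and immunity genes, 9 tested, had 0 passing by limma, with 3 at an unadjusted p under 0.05 and a median term of -0.34. The count was also 0 for 9 abscisic acid, cold and drought genes (2 at an unadjusted p under 0.05), 8 rapid touch genes (1), and 25 and 5 ribosomal protein genes without and with an organelle in their name (1 and 0). An unadjusted p under 0.05 was reached by 1353 and 1496 of all 3215 tested genes with pseudocounts of 0.1 and 5. Of 11 tested photosynthesis genes 1 passed, CAB2 (AT1G29920), at 2417 and 2716 in shoot water, 1220 and 1427 in shoot 2,5-D and between 4.71 and 4.88 in root. WRKY factors had 2 of 24 passing (8.33%) and NAC factors 4 of 12 (33.3%), all with root above. With the length trend removed 1 and 2 passed. Of 15 auxin response genes 3 passed below (20%), including the opposite SAUR gene AT4G00880, with changes of -0.97 and 0.48. Among 6 aquaporins 2 passed below (33.3%), PIP2;4 (AT5G60660, opposite at -0.82 and 0.24) and PIP1A (AT3G61430). With the length trend removed 1 auxin response gene and 1 aquaporin passed below, and 0 photosynthesis genes passed. PIP2;4 then had a shoot change near 0 (-0.0043) and was not opposite. A count of 0 in these lists is a count of calls, and does not show that the organs responded alike.

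**Figure D5:**
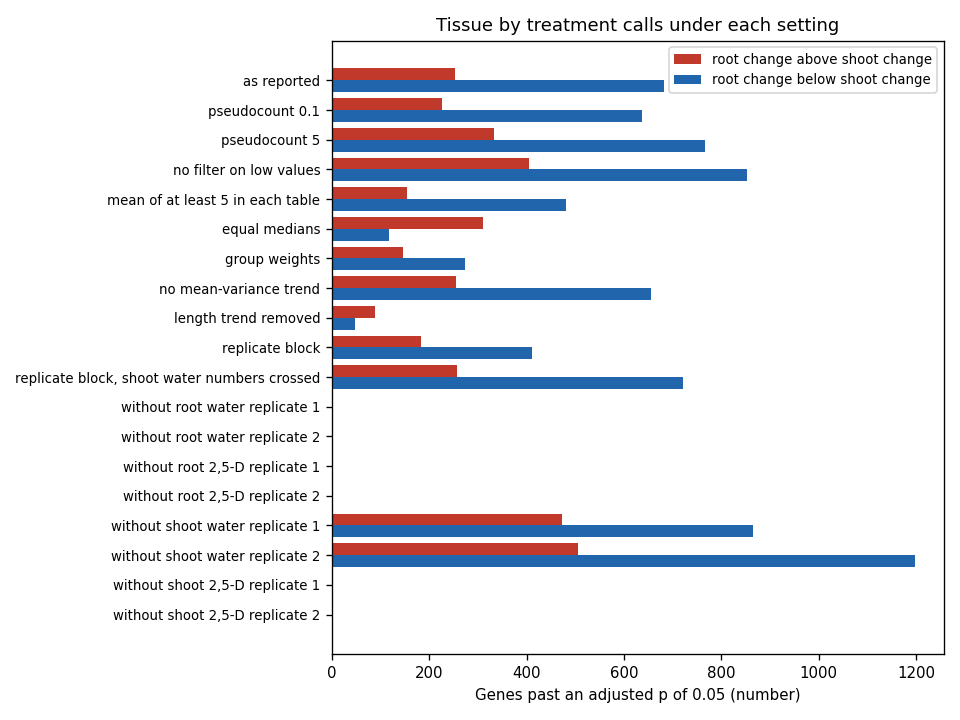
Number of genes past an adjusted p of 0.05 for the tissue by treatment term as reported and under each other setting, with red bars for a root change above and blue bars for a root change below the shoot change. Calls fall from 936 to 135 with the length trend removed, turn in balance with equal medians, and vanish or nearly vanish without any 1 root or shoot 2,5-D library.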

How the data were processed

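RNA was sequenced from roots and shoots of Col-0 plants, with 2 libraries for each organ and treatment. The aligner was HISAT2 2.0.4 (per the submitters' processing notes). Which build, gene models and quantifier the authors used was not stated in any source used here. The values deposited by the authors are a normalized signal for each gene whose unit is not named, in 1 table per organ, and 3691 genes were joined across them. Both shoot 2,5-D columns carry the header of replicate 1, so they were used as the pair of that group, and their numbers 1 and 2 are only names. The number of unused value columns was 0.

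All 3691 locus identifiers matched the RefSeq annotation of assembly TAIR10.1, which gave symbols, product names and exonic lengths. An exonic length is the summed exon bases of the longest annotated transcript of a gene. No coordinates or sequences are given, since the authors' build is not known.

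Tables were joined on the locus identifier, and genes with a mean of at least 1 in each table were kept. Values were fitted as log2(value + 1) with limma 3.58.1 in R 4.3.3, with a mean for each of the 4 groups and a mean-variance trend. Benjamini-Hochberg adjustment ran over all genes tested, at a threshold of 0.05. Each organ was also fitted alone. With 2 libraries against 2, no exact permutation test could pass the threshold.

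Members and gene lists were chosen with earlier results of these data known. Genes named in the text are, among opposite genes, the 12 of each direction with the largest size of the smaller organ change. Among called genes they are the 6 with the largest term of each kind that changed by at least 1 in 1 organ and by less than 0.3 in the other. To these come the 4 with the largest term in each direction among called genes that moved the same way in both organs. In each list the opposite genes and the 3 with the largest term were eligible, as were the genes on either side of the mean threshold. A search of promoters for motifs was not run. Alternatives covered the pseudocount, the filter, the scaling, group weights, the variance trend, the length trend, a replicate block and each library left out.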

Additional observations from a re-analysis of the deposited data

Results flagged for a closer look

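Each result here was set apart because the change with 2,5-D differed between root and shoot, either by limma's tissue by treatment term or, for opposite genes, because the pairs separated in opposite directions. For opposite genes chosen on these values the difference was not tested independently. By the term 936 genes differed, and 374 were opposite. Of all tested genes 29.1% passed the term, 7.87% above and 21.2% below. Among tested list members it passed in 13 of 16 heat shock genes, 2 of 18 jasmonate genes, 1 of 11 photosynthesis genes and 4 of 10 expansins and xyloglucan enzymes. The counts were 6 of 26 cytochromes P450, 6 of 21 glutathione transferases, 3 of 17 UDP-glycosyltransferases, 2 of 24 WRKY factors and 4 of 12 NAC factors. They were 24 of 41 intracellular immune receptors, 40 of 82 receptor-like kinases, 3 of 11 peroxidases, 2 of 6 aquaporins, 3 of 15 auxin response genes and 6 of 18 histone genes. All of these list counts are without the length correction, which took the calls over all tested genes from 936 to 135. Corrected list counts, where given, are in the sections above.

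Among root-high opposite genes the term (root change minus shoot change, log2 scale) was 2.22 for AT3G19615, 2.57 for AT1G07400, 3.37 for AT5G37670, 2.58 for AT2G29500, 3.64 for AT4G28290, 2.705 for CA1 (AT3G01500), 1.91 for MPL1 (AT5G14180), 1.54 for TEM1 (AT1G25560), 1.52 for RMA1 (AT4G03510), 2.93 for AT1G54050, 2.26 for SWEET2 (AT3G14770) and 3.32 for AT1G59860. In root-low opposite genes it was -2.16 for SPL13A (AT5G50570), -1.39 for PRS2 (AT1G32380), -1.57 for CRF3 (AT5G53290), -1.30 for SUC2 (AT1G22710), -1.61 for CYP79B2 (AT4G39950), -1.57 for HK1 (AT2G17820), -1.24 for HA3 (AT5G57350), -1.74 for AT4G00700, -1.28 for AT5G22860, -2.01 for AT1G26420, -1.58 for XIP1 (AT5G49660) and -1.33 for IRX3 (AT5G17420). Genes that were higher in root with a nearly flat shoot had terms of 3.73 for ATHSP22.0 (AT4G10250), 3.37 for HSP17.4 (AT3G46230), 3.14 for HSP23.6-MITO (AT4G25200), 3.03 for AT3G47380, 2.57 for AT5G54165 and 2.32 for GSTU3 (AT2G29470). Those lower in root with a nearly flat shoot had -2.07 for EXPA14 (AT5G56320), -1.97 for TPPH (AT4G39770), -1.86 for BAM3 (AT4G20270), -1.83 for BXL2 (AT1G02640), -1.72 for SWEET11 (AT3G48740) and -1.58 for AT3G20015. Where shoot was higher and root nearly flat the term was -2.14 for AT3G03030, -2.03 for AT3G56790, -1.90 for AT1G51890, -1.89 for ABCC11 (AT1G30420), -1.85 for AT1G51270 and -1.83 for CKX5 (AT1G75450). Where shoot was lower and root nearly flat it was 1.44 for NAC6 (AT5G39610), 1.40 for AT2G43550, 1.39 for LSU3 (AT3G49570), 1.34 for AT1G52245, 1.34 for AT5G53820 and 1.21 for GSTU20 (AT1G78370). With both organs moving the same way, the root change lay above the shoot change by 2.598 for AT2G38240, 1.76 for BAG6 (AT2G46240), 1.73 for DREB2C (AT2G40340) and 1.71 for AT5G05220. It lay below it, with terms of -1.57 for AT3G10190, -1.44 for SERK4 (AT2G13790) and -1.39 for UMAMIT20 (AT4G08290).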

How the results depend on the processing

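The count of 936 genes (253 above, 683 below) was 862 and 1099 with pseudocounts of 0.1 and 5, and 910 without a variance trend. With no filter 404 passed above, and 153 did with a mean of at least 5. Equal medians gave 427 calls (117 below) and 631 opposite genes (321 root-high). Group weights gave 419 (146 and 273). The length trend removed gave 135 (88 and 47), with 232 and 115 opposite genes, and was added for the opposite genes after seeing the data. A replicate block gave 594 (183 and 411), and with the shoot water numbers crossed, added after seeing the data, 978. Deviations of same-numbered libraries correlated at -0.05 (root water and root 2,5-D), -0.35 (root water and shoot water) and -0.05 (root 2,5-D and shoot water). None is over 0.1, so the numbers were not taken as pairs, though -0.35 is not near 0 and the choice of block moved the calls from 594 to 978. Leaving out 1 library gave 0 to 1702 calls (0 to 505 above, 0 to 1197 below), and 374 opposite genes became 403 to 595 (134 to 313 root-high, 269 to 423 root-low). Asking for a size of 1 in both organs left 1 opposite gene (1 and 0), and asking for an adjusted p of 0.05 in each organ left 0 (0 and 0). Of 103 named called genes, 37 kept their call after removal of the length trend, 77 under equal medians, 86 under group weights and 91 under the block. The terms that turned sign belonged to genes not called among the 936. That of PRR7 (AT5G02810) became 0.0267 after removal of the length trend. Over fits that left out 1 library, the terms ran from -3.03 to 1.04 for ZAT11 (AT2G37430), from -2.37 to 0.13 for WRKY46 (AT2G46400) and from -2.89 to 0.82 for PER4 (AT1G14540), each positive without shoot water library 1. ZAT11 passed in that fit (adjusted p = 0.0192). The causes of these shifts were not tested. Depth is unknown, which limits what can be said of genes near the mean threshold.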

Other observations

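The genes in this section were picked after their values were seen, and no test bears on the choice. CLE peptides set the size of stem cell pools, and 5 genes for their receptors fell in root by limma's root fit. Of all genes tested in root 22.5% were called lower. The root change was -1.07 for CLV1 (AT1G75820), -1.27 for BAM1 (AT5G65700), -1.11 for BAM2 (AT3G49670), -1.79 for BAM3 (AT4G20270) and -1.41 for PXY (AT5G61480), the receptor of the vascular cambium. Their shoot changes lay between -0.17 for BAM2 and 0.31 for CLV1. Other CLE receptors were not looked at. All 5 transcripts are long, at 3417 to 3732 bases.

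Past CYP79B2 and CYP79B3, further root-low opposite genes belong to indole glucosinolates. SOT16 (AT1G74100), a sulfotransferase of glucosinolate synthesis, was at 330 and 282.7 in root water, 196.5 and 240.6 in root 2,5-D, 194.7 and 205 in shoot water, and 366.9 and 341.6 in shoot 2,5-D. IGMT3 (AT1G21110), a methyltransferase, had changes of -0.35 in root and 1.73 in shoot. PEN2 (AT2G44490), which cleaves indole glucosinolates in defence, had -0.11 and 0.72. Genes of xylem and secondary walls were lower in root with small shoot differences upward. These were LAC11 (AT5G03260), a laccase, at -1.14 and 0.23, CESA4 (AT5G44030), a cellulose synthase, at -0.75 and 0.43, and XCP2 (AT1G20850), a xylem peptidase, at -0.72 and 0.19. TT4 (AT5G13930), chalcone synthase, went from 303 and 332.6 to 200.2 and 199.2 in root and from 177.5 and 135.8 to 191.9 and 184.8 in shoot.

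In the other direction stood bZIP1 (AT5G49450), a transcription factor of the low-energy response, at 123.7 and 82.54 in root water, 190.8 and 157.9 in root 2,5-D, 39.81 and 49.12 in shoot water, and 29.53 and 32.8 in shoot 2,5-D. DIN9 (AT1G67070), a dark-induced gene, had changes of 1.58 and -0.30, and ATG8H (AT3G06420), of autophagy, 0.89 and -0.34.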
